A study of Mus musculus with 6 samples.

Results

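The Kruppel-like factors are zinc finger transcription factors, and 10 of their genes, Klf2, Klf3, Klf4, Klf6, Klf9, Klf10, Klf11, Klf12, Klf13 and Klf15, are described here in mouse liver. They are 10 of the 17 Klf genes among the 24346 gene symbols of the deposited table, and 9 of them passed a filter on low values, which asked for 0.5 FPKM or more on average over the 6 livers. These 10 genes were chosen on measured values of the same comparison of control with lipophagy livers, so their differences between the groups are given as a description, with no test.

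The study asked what happens in a fatty, inflamed liver when autophagy of lipid droplets (lipophagy) is switched on in hepatocytes. Male C57BL/6 mice (C57BL/6J in the methods), 8 weeks old at the start, ate a choline-deficient, amino acid-defined high-fat diet (CDAHFD) for 6 weeks as a model of nonalcoholic steatohepatitis (NASH). They were returned to normal chow and their livers were taken 2 weeks later. One intravenous dose of an adeno-associated virus of serotype 8 delivered the construct, whose thyroxine-binding globulin promoter is active in hepatocytes. The 3 lipophagy mice received LDTS-eLIR, a lipid droplet-targeting sequence from perilipin 1 joined to an engineered LC3-interacting region from optineurin. The 3 control mice received LDTS-LIR mut, in which that region is mutated. Both groups therefore carried the diet, the virus and the droplet-targeting part, which the study treats as lipogenic by itself, and an uninjected or chow-fed liver is not analysed here. Nothing in the labels links a control mouse to a lipophagy mouse.

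Kruppel-like factors bind GC-rich boxes in promoters, most often CACCC or GC boxes, through a conserved set of zinc fingers at the C-terminus, and they share these boxes with the SP factors. Their N-termini differ and sort them by cofactor. Klf2, Klf4 and Klf6 mainly activate through acetyltransferases, Klf3 and Klf12 repress through the corepressor CtBP, Klf9, Klf10, Klf11 and Klf13 repress through SIN3A, and Klf15 stands outside these classes. In liver Klf15 is best known for driving amino acid catabolism and glucose production in fasting, Klf6 for induction on injury and in activated stellate cells, and Klf9 for its response to glucocorticoid and thyroid hormone.

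Poly(A) RNA of each liver was sequenced as paired-end, strand-specific libraries, and an estimated 22.8 M to 33.9 M fragments per liver stood behind the values. The estimate comes from the steps in which low values rise and depends on the transcript lengths assumed. Summed FPKM were 622696 to 681138 in control livers and 709993 to 782392 in lipophagy livers. Albumin and the other hepatocyte markers were the most abundant of the marker lists in every liver, and none of the 9 marker lists of liver cell types held a gene at 0 in all livers. Red blood cell markers, of which Alas2 was highest on average, were at 109 to 132 FPKM in control livers and 117 to 478 FPKM in lipophagy livers, with the highest sum in lipophagy liver 2, where the globin genes Hbb-b1 at 191 FPKM and Hba-a1 at 141 FPKM led. Macrophage markers were at 678 to 890 and 660 to 818 FPKM, T and NK cell markers at 5.71 to 8.12 and 5.56 to 6.69 FPKM, B cell markers at 2.42 to 4.48 and 2.2 to 3.61 FPKM, each with overlapping groups, although the B cell sums without Cd79b were 1.65 to 2.09 and 1.27 to 1.6 FPKM and did not overlap.

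Promoter sequences are shown for 3 of them because they hold the boxes that the family itself binds. Klf6 and Klf15 are shown as the only members whose livers separated by group, and Klf3 as the member whose promoter held the most boxes. The sequences are from RefSeq (GRCm38.p6, the assembly called mm10), run 5′ to 3′ on the plus strand, and end before any base that GENCODE places in an exon of the same gene. Capitals mark, on either strand, the GC box, spelled GGGCGG, and the CACCC box of the family. They also mark the E-box, spelled CACGTG, which is the site of clock factors and of factors related to MYC. Klf6 is at chr13:5861239-5861481, before the start of its first exon. Klf15 is at chr6:90462326-90462575, before an annotated start inside the span of the gene. Klf3 is at chr5:64803271-64803387.
Klf6: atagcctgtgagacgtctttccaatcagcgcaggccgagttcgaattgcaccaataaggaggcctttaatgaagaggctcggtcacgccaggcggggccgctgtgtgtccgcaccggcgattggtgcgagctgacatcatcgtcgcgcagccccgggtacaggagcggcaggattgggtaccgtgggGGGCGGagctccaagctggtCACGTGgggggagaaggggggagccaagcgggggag
Klf15: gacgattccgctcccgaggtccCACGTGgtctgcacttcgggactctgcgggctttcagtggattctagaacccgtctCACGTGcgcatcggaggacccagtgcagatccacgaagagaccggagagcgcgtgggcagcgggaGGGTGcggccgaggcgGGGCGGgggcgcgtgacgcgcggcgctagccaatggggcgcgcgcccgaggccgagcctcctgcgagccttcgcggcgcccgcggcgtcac
Klf3: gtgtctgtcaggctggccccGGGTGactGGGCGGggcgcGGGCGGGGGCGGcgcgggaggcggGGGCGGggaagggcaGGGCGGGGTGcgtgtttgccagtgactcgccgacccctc

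Of the 10 genes, 9 matched an entry of the promoter table, while Klf10 had none and is not covered by the motif counts. The 250 bases before each start were searched on both strands. GC boxes were present in 7 of these 9, against 32.7% of the 32851 promoters of the table. CACCC boxes were present in 6 of the 9, against 52.0% of all promoters. Klf3 held 6 GC boxes and 5 CACCC boxes, of which 4 lie in the exonic part that is not printed, and in Klf3 and Klf13 one box of each kind overlapped. The E-box was found in Klf4, Klf6, Klf11 and Klf15, which is 4 of 9, against 6.02% of all promoters. Klf15 held the E-box at 2 places, from -228 to -223 and from -172 to -167, and Klf6 held it close to the start, from -43 to -38. The GC content of the 9 windows had a median of 71.6%, with a range of 48.0% to 78.4%, against a median of 52.4% over all promoters, so that GC-rich motifs were more likely in them by composition.

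Klf2 alone held a site for MEF2, the factor through which the kinase ERK5 raises Klf2 in endothelium, and 2.92% of all promoters hold one. The stretch around it, at chr8:72318924-72318973 on the plus strand, is shown with the site in capitals.
Klf2: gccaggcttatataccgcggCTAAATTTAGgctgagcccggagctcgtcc
The AP-1 site (TGAGTCA) was found in 0 of the 9 windows and in 4.46% of all promoters, the cyclic AMP response element (TGACGTCA) in 0 and 1.55%, and the serum response element in 0 and 1.47%. A TATA box (TATAAA) was found in Klf12 alone, against 12.4% of all promoters. It lay on the opposite strand, from -191 to -186. The window of Klf12, like that of Klf15, is before an annotated start inside the span of the gene, and it had the lowest GC content of the windows, 48.0%. Such matches describe the letters of these windows and do not show binding.

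**Figure D1:**
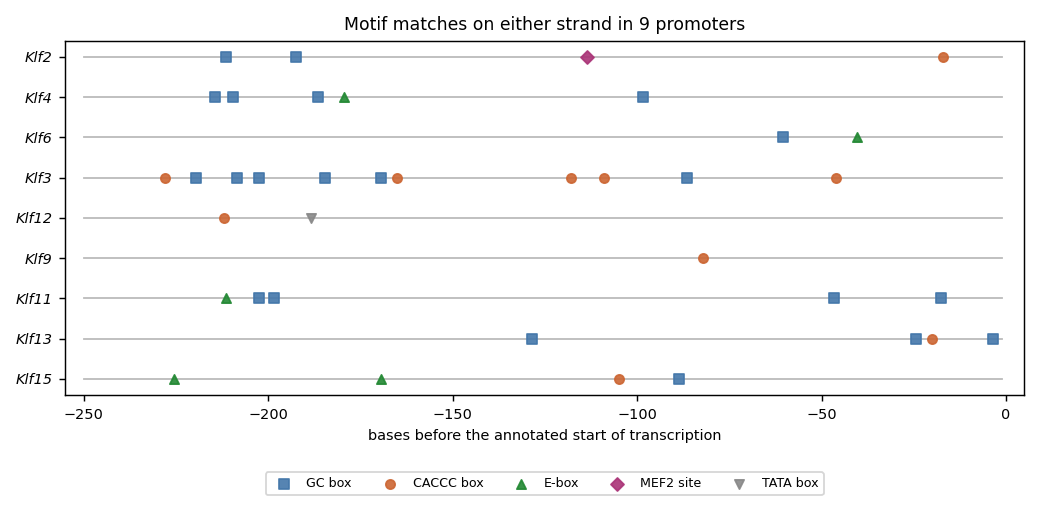
Each row is the window before the annotated start of 1 of the 9 genes, the horizontal axis is the distance from that start in bases, and symbols mark motif matches on either strand. Klf3 carries the most GC and CACCC boxes, and E-boxes lie in Klf4, Klf6, Klf11 and Klf15.

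Klf15 was by far the most abundant of the 10 transcripts. FPKM (sequenced fragments scaled to transcript length and to the total mapped) is scaled to transcript length, so levels of different genes can be set side by side. In control livers the mean level was 54.1 FPKM for Klf15, 10.6 for Klf9, 6.69 for Klf6, 5.31 for Klf3, 5.25 for Klf10, 3.80 for Klf13, 2.55 for Klf2, 2.23 for Klf11, 1.18 for Klf12 and 0.251 for Klf4. Klf15 stood above Klf9, and Klf9 above Klf6, in every control liver, while Klf6, Klf3, Klf10 and Klf13 overlapped with their neighbours in this order, as did Klf2 and Klf11. In lipophagy livers Klf15 was again first, at 83.9 FPKM. Klf10 and Klf9 followed with overlapping livers, then Klf3, Klf13, Klf6, Klf11 and Klf2 in an unbroken run of overlapping neighbours, and Klf12 and Klf4 were last. Klf6 thus moved from the third place to the sixth.

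Summed over the 10 genes, the level was 82.7, 96.2 and 97.2 FPKM in control livers 1, 2 and 3 and 118, 106 and 154 FPKM in lipophagy livers 1, 2 and 3. Every lipophagy liver lay above every control liver, as it did for the summed FPKM of the whole table. Klf15 alone made up 56.2% to 62.6% of the sum of the 10 genes in control livers and 59.0% to 74.4% in lipophagy livers. Without Klf15 the sums were 35.1, 36.0 and 42.5 FPKM in control livers and 30.2, 32.8 and 63.2 FPKM in lipophagy livers. The other 9 genes together were lowest in lipophagy livers 1 and 2 and highest in lipophagy liver 3.

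**Figure D2:**
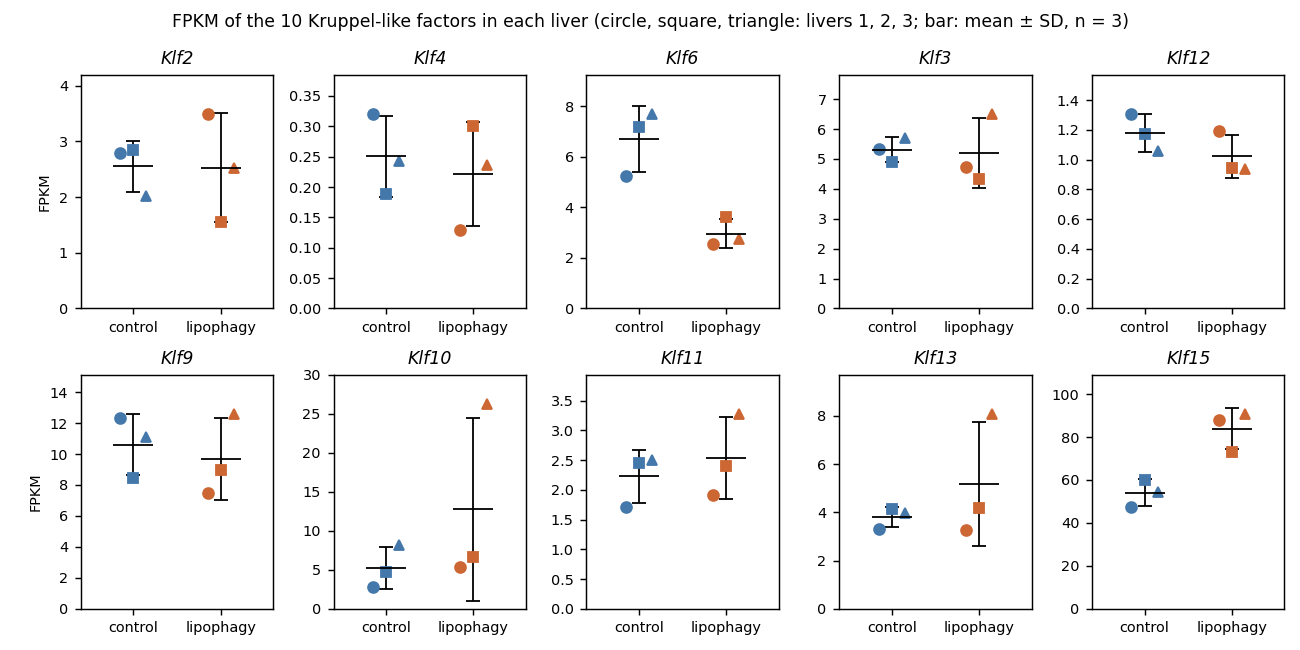
FPKM of each of the 10 Kruppel-like factors, with 1 symbol per liver and a bar for mean ± SD (n = 3); each panel has its own axis from 0. The groups separate for Klf6 and Klf15, and lipophagy liver 3 (triangle) is the highest point for Klf3, Klf9, Klf10, Klf11, Klf13 and Klf15.

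Across the 11493 genes that passed the filter, limma on log2(FPKM + 1) with Benjamini-Hochberg adjustment called 3 genes (Cish, Foxa1 and Phlda1), which is 0.0261%, and 2243 genes, or 19.5%, had an unadjusted p below 0.05. None of the 10 Kruppel-like factors was among the 3, and 2 had an unadjusted p below 0.05. Because this contrast chose the members, nothing is read from these counts. Lipophagy livers lay all below control livers for 1 member (Klf6), against 10.8% of tested genes, and all above them for 1 member (Klf15), against 15.4%. The livers overlapped for the other 8, and no share is read from these counts either. Mean log2 levels were lower in lipophagy livers for 6 members and higher for 4, and the median log2 change (lipophagy minus control) was -0.04 over the 10 members and 0.02 over all tested genes. The median of the members turned sign in 4 of 14 other ways of processing, among them quantile normalization at 0.01, after which 4 members were lower and 6 higher. Ways that change only the filter or the model fitted, and not the values or livers, leave every log2 change as it is.

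Among the activators, Klf6 differed most between the groups. Klf6, a factor induced early after tissue injury, was at 5.22, 7.16 and 7.71 FPKM in control livers and at 2.56, 3.60 and 2.73 FPKM in lipophagy livers. The lowest control liver was above the highest lipophagy liver. The means were 6.69 ± 1.31 (SD, n = 3) and 2.96 ± 0.559 FPKM (SD, n = 3), a control level 2.26 times the lipophagy level. On the log2(FPKM + 1) scale the change of Klf6 was -0.95 (SE 0.15), and 26 of the 11493 tested genes, Klf6 included, had a change at or below it. It lay between -1.15 and -0.86 over 14 other ways of processing the values, not all of which can move it.

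Klf2 and Klf4 are activators that keep the endothelium quiescent, and Klf4 also marks monocytes. Klf2 was at 2.79, 2.84 and 2.02 FPKM in control livers and at 3.50, 1.55 and 2.53 FPKM in lipophagy livers. Its highest and its lowest liver were both lipophagy livers, and the log2 change was -0.04 (SE 0.20), with a sign that turned in 4 of 14 other ways of processing. Klf4 did not reach the mean of 0.5 FPKM, with 0.321, 0.188 and 0.243 FPKM in control livers and 0.130, 0.300 and 0.236 FPKM in lipophagy livers. Those values stood for about 25, 13 and 24 sequenced fragments in control livers and 9, 20 and 17 in lipophagy livers, counts too small to show a modest difference, and the log2 change of -0.03 turned sign in 3 of 14 other ways of processing.

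The CtBP-binding repressors showed little difference. Klf3, a repressor known from erythroid cells and fat, was at 5.35, 4.89 and 5.70 FPKM in control livers and at 4.74, 4.33 and 6.52 FPKM in lipophagy livers. The lipophagy livers lay on both sides of the control livers, and the log2 change was -0.04 (SE 0.13). Klf12, first described as a repressor of AP-2α, was at 1.31, 1.17 and 1.06 FPKM in control livers and at 1.19, 0.944 and 0.937 FPKM in lipophagy livers. Klf12 had a log2 change of -0.11 (SE 0.09), negative in all 14 other ways of processing, while lipophagy liver 1 lay above control livers 2 and 3.

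The SIN3A-binding factors varied more among the lipophagy livers than between the groups. Klf10, which is induced by TGF-beta and follows the day-night cycle in liver, was at 2.81, 4.74 and 8.20 FPKM in control livers and at 5.38, 6.59 and 26.3 FPKM in lipophagy livers. Lipophagy liver 3 stood 3.21 times above the highest other liver, and the other 2 lipophagy livers lay within the control range. The means were 5.25 ± 2.73 (SD, n = 3) and 12.8 ± 11.7 FPKM (SD, n = 3), and the log2 change of 0.90 (SE 0.54) became 0.25 without lipophagy liver 3.

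Klf13, which acts in lymphocytes and heart and is a relative of Klf9, had the same shape at a smaller size. It was at 3.32, 4.13 and 3.95 FPKM in control livers and at 3.26, 4.16 and 8.08 FPKM in lipophagy livers. Lipophagy liver 3 was 1.94 times the highest other liver, and the log2 change of 0.29 (SE 0.25) became -0.03 without it.

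Klf9, the glucocorticoid- and thyroid-responsive member, was at 12.3, 8.44 and 11.1 FPKM in control livers and at 7.49, 8.94 and 12.6 FPKM in lipophagy livers. Its groups overlapped, with a log2 change of -0.14 (SE 0.19) that became 0.02 without lipophagy liver 1 and -0.32 without lipophagy liver 3. Klf11, a TGF-beta-inducible relative of Klf10, was at 1.72, 2.46 and 2.51 FPKM in control livers and at 1.91, 2.41 and 3.28 FPKM in lipophagy livers. Its log2 change of 0.12 (SE 0.16) became -0.03 without lipophagy liver 3, and the groups overlapped.

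Klf15 was the member with the clearest higher level. It was at 47.6, 60.2 and 54.6 FPKM in control livers and at 87.8, 73.2 and 90.8 FPKM in lipophagy livers. The lowest lipophagy liver was above the highest control liver, and the means of 54.1 ± 6.30 (SD, n = 3) and 83.9 ± 9.43 FPKM (SD, n = 3) gave a ratio of 1.55. The log2 change of Klf15 was 0.62 (SE 0.12), 107 of the tested genes had a change at or above it, and it lay between 0.47 and 0.72 over the 14 other ways of processing.

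Which members separated depended on the livers kept, and with fewer livers more genes separate. Without lipophagy liver 1, Klf12 also lay below and Klf13 also above the control livers, as 14.4% and 18.4% of tested genes did in these directions. Without lipophagy liver 3, Klf3 also lay below, beside 18.5% of tested genes, and without control liver 3, Klf10 also lay above, beside 20.2%. Nothing further is read from these counts.

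**Figure D3:**
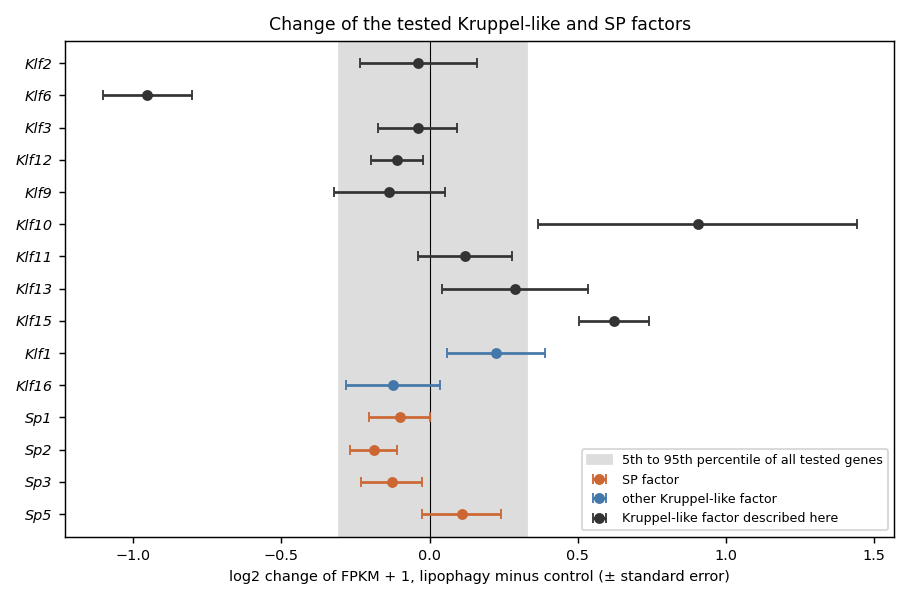
Log2 change of FPKM + 1 (lipophagy minus control) with its standard error for the 9 tested members, the 2 other tested Kruppel-like factors and the 4 tested SP factors; the grey band runs from the 5th to the 95th percentile of all tested genes, -0.30 to 0.33. Klf6 lies below the band and Klf10 and Klf15 above it.

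Lipophagy liver 3 held the highest value of 6 of the 10 members, Klf3, Klf9, Klf10, Klf11, Klf13 and Klf15, and it held the highest value of 16.5% of the tested genes. For Klf9 and Klf15 this was a near tie, at 1.03 times the highest other liver. For Klf3 it was 1.14 times and for Klf11 1.31 times. A level at least 1.5 times that of every other liver, as Klf10 and Klf13 had there, was seen in 83 tested genes, or 0.722%. Klf9, Klf10 and Klf15 are known to cycle over the day, and in a list of 17 tested clock genes lipophagy liver 3 was highest for 13. Ciart, a clock repressor, was at 2.46, 2.62 and 4.76 FPKM in control livers and at 2.98, 4.50 and 35.5 FPKM in lipophagy livers. Per1, a clock gene that glucocorticoids also induce, was at 1.76, 2.13 and 2.56 FPKM in control livers and at 3.28, 3.17 and 8.71 FPKM in lipophagy livers. Arntl, which encodes BMAL1, was lowest in lipophagy liver 3, at 0.327 FPKM against 0.583 to 1.29 FPKM in the other livers. The clock list had a median log2 change of 0.11, or 0.03 without lipophagy liver 3, beside 0.02 over all tested genes. The hour at which each liver was taken is not given in the sources used here, and its part in the levels of Klf10 and Klf13 was not tested.

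Glucocorticoid and thyroid hormone are known to induce Klf9 or Klf15, and other genes that respond to glucocorticoid were often highest in lipophagy liver 3. Of 11 tested genes of the list, receptors included, 8 were higher and 3 lower in mean, 0 passed the adjusted threshold with limma, 3 had an unadjusted p below 0.05, and lipophagy liver 3 was highest for 7. Tsc22d3, the glucocorticoid-induced leucine zipper, was at 15.9, 21.4 and 18.1 FPKM in control livers and at 35.9, 34.5 and 68.6 FPKM in lipophagy livers, with a log2 change of 1.22 (SE 0.25, adjusted p = 0.124, limma). Its groups did not overlap. Dio1, of the thyroid hormone part of the list, was highest in control liver 2, at 94.6 FPKM against 78.8 FPKM in lipophagy liver 3. Its log2 change was -0.04. Thra, a thyroid hormone receptor, had the lowest change of the list at -0.24 and, like Nr3c1, was highest in control liver 1. The receptor gene Nr3c1 was at 5.85 to 7.62 FPKM in control livers and 5.76 to 6.10 FPKM in lipophagy livers. The median log2 change of the list was 0.41, and 0.10 without lipophagy liver 3.

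Genes of amino acid catabolism, a process that KLF15 is known to control, were all higher in mean in lipophagy livers. This held for 17 of 17 tested genes, with a median log2 change of 0.27 beside 0.02 over all tested genes. With limma 0 passed the adjusted threshold and 9 had an unadjusted p below 0.05 (19.5% of all tested genes), and for 6 the lipophagy livers lay all above the control livers, beside 15.4% of all tested genes. Tat, which starts tyrosine breakdown, was at 337, 488 and 240 FPKM in control livers and at 803, 390 and 1000 FPKM in lipophagy livers, a log2 change of 0.995 (SE 0.364) with overlapping groups. Prodh, which starts proline breakdown, was at 51.9, 44.3 and 41.3 FPKM in control livers and at 62.1, 55.9 and 59.7 FPKM in lipophagy livers, and its groups did not overlap. Bckdhb, of the branched-chain keto acid dehydrogenase, had the lowest change of the list at 0.09. After quantile normalization the median of the list was 0.08.

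Of 6 tested genes of glucose production and fasting, 5 were higher in mean, with a median log2 change of 0.32, 0 past the adjusted threshold and 2 at an unadjusted p below 0.05. G6pc, the glucose-6-phosphatase, varied widely, with 107, 86.9 and 24.7 FPKM in control livers and 329, 89.9 and 117 FPKM in lipophagy livers. Pck1, the gatekeeper of gluconeogenesis, was at 512, 709 and 497 FPKM in control livers and at 828, 736 and 1390 FPKM in lipophagy livers. Its groups did not overlap, while those of G6pc did. Pdk4, a fasting gene, was the lowest of the list at a log2 change of -0.05. Summed hepatocyte markers, of which the highest was Alb, were at 71200 to 81200 FPKM in control livers and 84700 to 109000 FPKM in lipophagy livers, and their part in these lists and in Klf15 was not tested. Alb carried this separation: without it the sums overlapped, at 35700 to 42000 and 39600 to 44400 FPKM. Of the 10 hepatocyte markers 7 were higher and 3 lower in mean, with a median log2 change of 0.19 that was -0.03 after quantile normalization.

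Genes on which KLF6 acts lay lower in lipophagy livers, with 7 of 7 tested genes lower in mean and a median log2 change of -0.33. None passed the adjusted threshold with limma, 4 had an unadjusted p below 0.05, and for 4 the lipophagy livers lay all below the control livers, beside 10.8% of all tested genes. Col1a1, the fibrillar collagen chain, was at 5.91, 6.15 and 6.98 FPKM in control livers and at 2.63, 3.99 and 3.61 FPKM in lipophagy livers, with a log2 change of -0.75 (SE 0.13, adjusted p = 0.103, limma). Cdkn1a, the cell cycle inhibitor p21, was at 16.2, 18.6 and 14.0 FPKM in control livers and at 10.6, 7.90 and 10.9 FPKM in lipophagy livers. Tgfb1 and Plau, which encodes urokinase, also had groups that did not overlap, while Eng, a TGF-beta coreceptor, had the change nearest 0 at -0.01. Summed stellate cell markers were at 176 to 186 FPKM in control livers and 139 to 168 FPKM in lipophagy livers, and 9 of the 10 were lower in mean, 6 of them all below the control livers, with a median log2 change of -0.33. Without Dcn, the most abundant of them, the sums were 53.2 to 61.7 and 37.6 to 44.5 FPKM, and Col1a1 is itself one of these markers. Summed neutrophil markers were at 19 to 32.3 and 16.3 to 18.8 FPKM. All 4 tested bile duct markers were lower in mean, with a median of -0.50, and their sums were 5.91 to 12.1 and 4.40 to 9.77 FPKM, with overlapping groups. Of 10 tested macrophage markers 6 were lower and 4 higher in mean, with a median of -0.17, with Csf1r and Cd68 all below the control livers and Vsig4 all above. In bulk tissue, fewer cells of a type and less RNA per cell cannot be told apart, and the part of these cells in the level of Klf6 was not tested.

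Immediate early genes, the class to which Klf6 and Klf10 belong by their rapid induction, were mostly lower. Of 16 tested genes, 13 were lower and 3 higher in mean, 6 had lipophagy livers all below the control livers and 1 all above, beside 10.8% and 15.4% of all tested genes, and the median log2 change was -0.33. With limma 0 passed the adjusted threshold and 10 had an unadjusted p below 0.05. Myc, a growth-promoting transcription factor, was at 11.6, 6.14 and 15.1 FPKM in control livers and at 1.63, 2.11 and 1.20 FPKM in lipophagy livers, with a log2 change of -2.11 (SE 0.27, adjusted p = 0.071, limma). Its groups were far apart. The adjusted p of Myc passed the threshold without control liver 2, the control liver nearest to the lipophagy livers. Leaving that liver out widens the gap, so nothing is read from this pass. Dusp1, a phosphatase that glucocorticoid also induces, had the highest change at 0.41, which lay in lipophagy liver 3 at 29.6 FPKM against 5.81 to 9.24 FPKM in all other livers. Klf6 lay with the larger part of this list, and Klf10 with Dusp1.

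The lists of the routes above Klf2, Klf4, Klf10 and Klf11 had medians near 0, with single genes apart. In the list of the ERK5-MEF2 route with PIEZO1 and the FOXO factors, 5 of 8 tested genes were lower in mean, with a median log2 change of -0.07, from Mapk7, which encodes ERK5, at -0.21 to Foxo1 at 0.24. Of 10 tested TGF-beta genes 7 were lower, with a median of -0.06, from Tgfb1 at -0.33 to Smad4 at 0.05. All 3 ligand genes lay all below the control livers, Tgfb1 at 0.744, Tgfb2 at 0.569 and Tgfb3 at 0.551 times the control mean. Tgfb2 and Tgfb3 were under the filter and not tested, and at such low levels they separated narrowly. Tgfb2 was at 0.155 to 0.235 FPKM in control livers and 0.0699 to 0.151 FPKM in lipophagy livers. Tgfb3 was at 0.379 to 0.647 and 0.211 to 0.362 FPKM, so no common fall of the ligands is read from them. Of the tested genes of these 2 lists, Tgfb1 and Mapk7 lay all below, beside 10.8% of all tested genes. The endothelial genes on which KLF2 and KLF4 act had 3 tested members, with the lowest change for S1pr1, a lipid receptor of vessels, at -0.23, and summed endothelial markers were at 37.9 to 45.3 FPKM in control livers and 43.4 to 62.1 FPKM in lipophagy livers. Cofactors and ubiquitin ligases had 7 lower and 7 higher of 14 tested genes and a median of 0.01, from the acetyltransferase Ep300 at -0.19 to the corepressor Sin3b at 0.22. Each of these 4 lists had 0 genes past the adjusted threshold with limma and, in that order, 0, 1, 0 and 1 at an unadjusted p below 0.05.

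Over all 12 lists, 109 genes were tested, 0 had an adjusted p below 0.05 with limma and 31, or 28.4%, an unadjusted p below 0.05, beside 19.5% of all tested genes. Some genes, among them Tgfb1, Per1 and Dusp1, were written in more than 1 list.

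**Figure D4:**
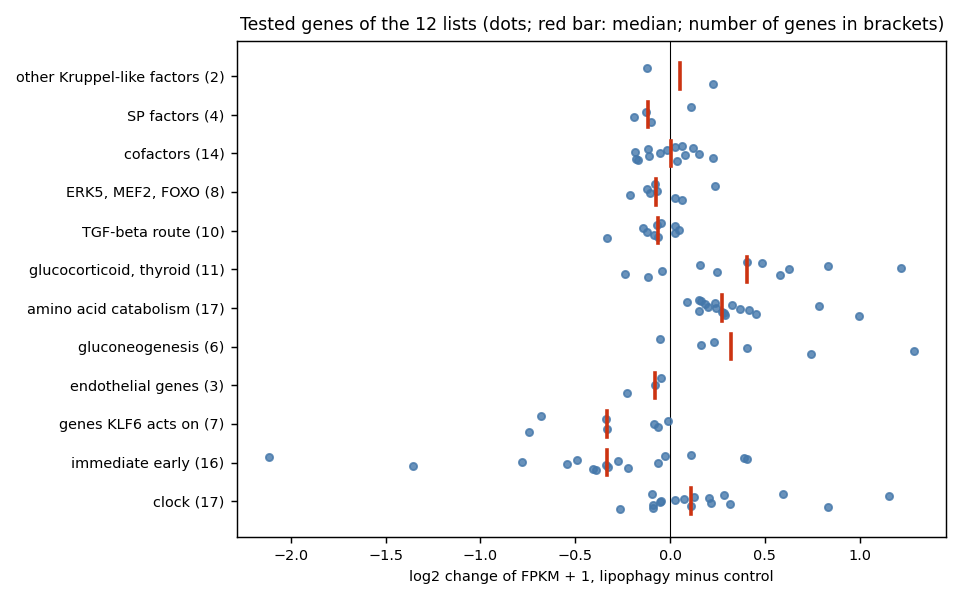
Each dot is the log2 change of FPKM + 1 (lipophagy minus control) of 1 tested gene, in rows by list with the number of tested genes in brackets, and the red bar is the median of the list. The medians of amino acid catabolism, gluconeogenesis and the glucocorticoid list lie right of 0 (0.27, 0.32 and 0.41), and those of the genes KLF6 acts on and of immediate early genes lie left of it (both -0.33).

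Klf genes outside the 10 members were mostly near the limit of detection. Klf1, the erythroid factor, was at 2.31, 1.41 and 2.42 FPKM in control livers and at 2.64, 1.94 and 3.05 FPKM in lipophagy livers, with a log2 change of 0.22, and Klf16 had a change of -0.12. Klf7, Klf5, Klf8 and Klf17 stood on 59, 7, 4 and 2 fragments summed over the 6 livers, and Klf14 was listed at 0 in every liver. Of the 9 SP genes, which bind the same boxes, Sp1, Sp2, Sp3 and Sp5 were tested. Sp2 was at 0.993, 1.10 and 1.24 FPKM in control livers and at 0.814, 0.889 and 0.850 FPKM in lipophagy livers, with groups that did not overlap and a log2 change of -0.19 (SE 0.08, adjusted p = 0.246, limma). The changes of Sp1, Sp3 and Sp5 were -0.10, -0.13 and 0.11.

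Across the whole table, the genes whose pattern over the 6 livers was most like that of Klf6 were Foxa2, Fam83a, Wfdc15b, S100a11 and Anxa2. Likeness was the root mean square difference of log2(FPKM + 1) values, each taken from its gene mean, and it was 0.10, 0.13, 0.14, 0.15 and 0.16 for these 5 genes. Foxa2 is a hepatocyte transcription factor, and S100a11 and Anxa2 encode calcium-dependent proteins that bind each other. For Klf10 the nearest were Usp2, Fkbp5, St3gal5, Id1 and Per1, at 0.30, 0.31, 0.34, 0.37 and 0.38, and lipophagy liver 3 was the highest liver for each of them. Usp2 and Per1 are clock-controlled and Fkbp5 is a glucocorticoid-induced chaperone partner, and Id1 encodes an inhibitor of helix-loop-helix factors. For Klf15, compared in the same way after its values were seen, the nearest were Ppp1r3c, Arfgap3, Srm, Hspa13 and Ficd, at 0.05, 0.06, 0.06, 0.07 and 0.07. Ppp1r3c encodes a glycogen-targeting subunit of a phosphatase, and Arfgap3, Hspa13 and Ficd encode proteins of the secretory pathway.

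**Figure D5:**
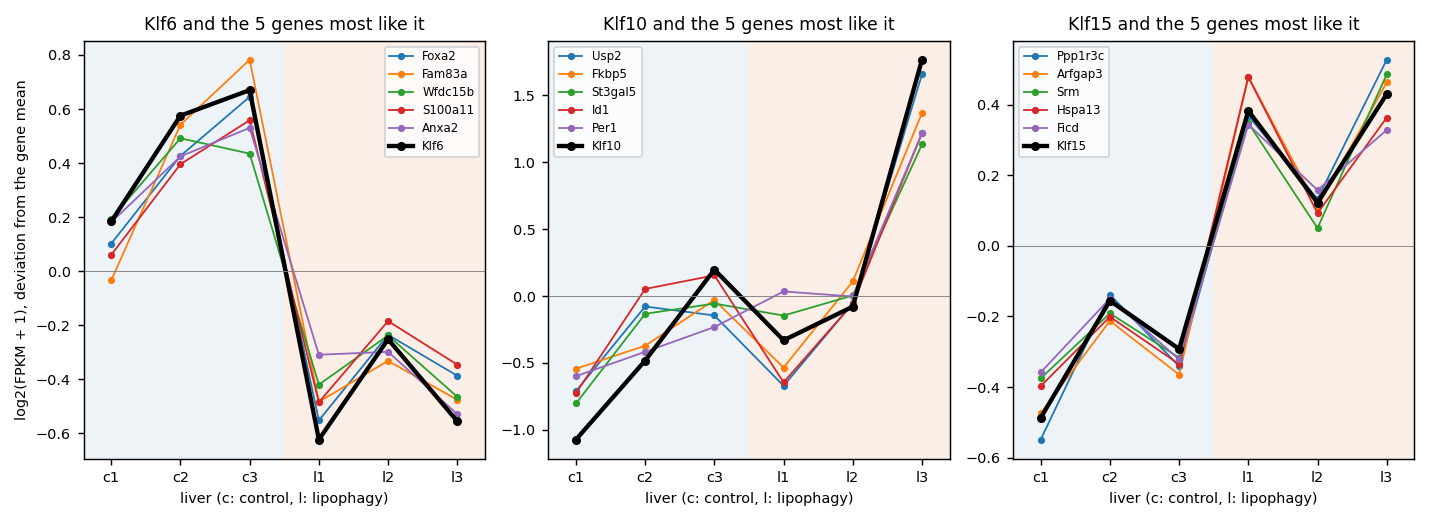
Log2(FPKM + 1) after each gene's own mean was taken off (vertical axis) in control livers 1 to 3 (c) and lipophagy livers 1 to 3 (l), for Klf6, Klf10 and Klf15 (black) and the 5 genes most like each. Klf6 and its neighbours are low in all lipophagy livers, Klf15 and its neighbours are high in them, and Klf10 and its neighbours peak in lipophagy liver 3.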

How the data were processed

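Liver poly(A) RNA of 3 control and 3 lipophagy mice was compared. The authors deposited FPKM per gene symbol and liver, scaled to transcript length and mapped fragments. The submitters' processing notes name TopHat2 2.0.13, Bowtie2 2.2.3, SAMtools 0.1.19, Cufflinks 2.2.1 and mm10. The instrument is a HiSeq in the labels and a NovaSeq in the methods. A count model does not suit FPKM, and log2(FPKM + 1) was used instead, a scale on which changes of low genes are understated. Genes averaging 0.5 FPKM or more (11493) were fitted with limma 3.58.1 in R 4.3.3 (moderated variance with an intensity trend, no covariate, two-sided, Benjamini-Hochberg over all tested genes, threshold 0.05). The SE of a log2 change is from this fit, and the change of Klf4, which was below the filter, is the difference of group means. P-values measure only the spread between these livers.

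The members and all lists were chosen with earlier results of these data known. Genes named were the 10 members, the other Klf genes, the tested SP genes, the extreme changes of each list, the leading gene of some marker lists and the 5 genes most like the members with the largest fall and rise. The 3 genes called over the table, and Cd68, Cdkn1a, Csf1r, Dio1, Egr1, Hba-a1, Hbb-b1, Ier3, Nr3c1, Pck1, Per1, Plau, Prodh, Tgfb2, Tgfb3, Vsig4 and the genes most like Klf15, were named after their values were seen. One value that the rule calls for is not reported here. Of the marker genes, Ly6g was not analysed here.

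Fragments per liver were estimated from whole steps of low FPKM (tolerance 0.08 of a step), with GENCODE transcript lengths less 150 bases, and cover counting error only. With nothing taken off they would be 21.2 M to 31.5 M. Of the gene symbols 27 had been turned into dates and were left as they stood. Alternatives were pseudocounts of 0.1 and 0.5, no filter, a filter at 1 FPKM, quantile normalization, a common median, no trend, a replicate block and each liver left out, 14 in all. No filter, a filter at 1 FPKM, no trend and the replicate block can move p-values and calls but not a log2 change. Promoters and gene places are from RefSeq (GRCm38.p6). Tables were made with pandas 2.3.3 in Python 3.11.15.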

Additional observations from a re-analysis of the deposited data

How the results depend on the processing

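Klf6, Klf10, Klf12 and Klf15 kept the sign of their log2 change under all 14 alternatives, with Klf10 at 0.25 without lipophagy liver 3. A changed filter, no trend and the replicate block cannot move a log2 change, so only the other alternatives bear on signs and ranges. The sign turned for Klf2 in 4, Klf3 in 3, Klf4 in 3, Klf11 in 2, Klf9 in 1 and Klf13 in 1 of them, all within their spread between livers. The median over the 10 members turned from -0.04 to 0.01 with quantile normalization, and leaving out control liver 1 gave 0.003, leaving out lipophagy liver 1 gave 0.02 and leaving out lipophagy liver 2 gave 0.10. The change of Klf4 was -0.14 with a pseudocount of 0.1. The 3 genes called over the whole table became 1 with no filter and 1 to 11 with a liver left out. The 0 listed genes became 0 to 1, namely Myc without control liver 2 and Ier3 without lipophagy liver 3. For each of them the liver left out was the one of its group nearest to the other group, so nothing is read from these passes. Members whose livers separate numbered 2, and 2 to 4 with a liver left out, when 14.3% to 18.5% of tested genes separate with lower and 18.4% to 25.9% with higher lipophagy livers.

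The replicate numbers were not taken as pairs, since deviations from the group means correlated at 0.25, 0.23 and -0.06 between livers of the same number, and not every liver correlated best with its own number. With the replicate block 43 genes were called over the table and 4 listed genes, Col1a1, Egr1, Ier3 and Myc. The block also put 1 member, Klf6, past the threshold, from which nothing is read because the members were chosen on this contrast. The median log2 change of the cofactor list turned sign in 4 alternatives, reaching -0.04 without control liver 3. The median of the endothelial genes turned to 0.01 without lipophagy liver 1 and to 0.0001 without control liver 1. With 3 livers a group, values of Klf4 and of the rarest Klf genes rest on few fragments and cannot show modest differences, and a two-sided exact permutation test of 1 value cannot go below p = 0.1.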
